A study of Mus musculus with 58 samples.

Results

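The genes described here are 10 imprinted genes of the mouse, chosen by name: H19, Meg3, Dlk1, Peg3, Grb10, Ndn, Gnas, Zrsr1, Mest and Plagl1. All 10 were found among the 55376 genes counted in each of 34 RNA-seq libraries of sorted hematopoietic stem cells (HSCs). An imprinted gene is transcribed mainly from the copy inherited from 1 parent, because DNA methylation laid down in egg or sperm marks a control region near it. Imprinted genes are known for their part in fetal growth, and several of them are known to be highly expressed in long-term HSCs, where their loss has been tied to a loss of quiescence. H19, Meg3 and Grb10 are mainly maternally expressed, Dlk1, Peg3, Ndn, Zrsr1, Mest and Plagl1 paternally, and Gnas has starts of either kind. The mice were inbred C57BL/6 animals and the counts are per gene, so the parental copies were not told apart and imprinting itself was not measured.

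The HSCs of the diet groups came from male mice and were sorted by a gate of LSK (Lin- Sca-1+ c-Kit+), CD34- Flk2- and CD150+. The old animals, aged 24 to 26 months, were fed ad libitum (OAL, n = 4 libraries), kept on lifelong 40% caloric restriction begun at 3 to 4 months (OCR, n = 4), or refed for 4 weeks after it (OCRRF, n = 2). Young mice of 3 to 4 months were fed ad libitum (YAL, n = 4), kept on short-term restriction for 4 weeks, at 20% in the first week and then at 40% (YCR, n = 4), or given a 4-week refeeding after it (YCRRF, n = 4). The transplanted libraries came from old donor HSCs that carried short hairpin RNA vectors and were recovered as LSK CD48- CD150+ CD45.2+ cells from lethally irradiated young female recipients. They held a Kdr knockdown (Kdr_shRNA, n = 4) with its scramble control (GFP_Scramble, n = 2) and a double knockdown of Kdr and Bmpr1a with 1 Kdr hairpin and either of 2 Bmpr1a hairpins (shRNA1 and shRNA2, n = 2 each) with its own scramble control (Double_Scramble, n = 2). Nothing in the labels ties a library to a single animal, so p-values measure the spread between these libraries.

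The old diet libraries held 23.5 to 34.4 M counts with reads on 42071 to 46646 genes. The young libraries held 11.1 to 36.6 M counts with reads on 22209 to 33496 genes. The transplanted libraries held 35.7 to 44.8 M counts with reads on 23453 to 25447 genes. The 7 HSC marker genes Kit, Ly6a, Slamf1, Procr, Mecom, Hlf and Fgd5 had reads in every library, with a summed level of 2597 to 3557 CPM in the diet libraries and 2097 to 2788 CPM in the transplanted ones. Levels are in CPM, counts scaled to a common library total, with TMM factors set within the diet libraries or within the transplanted ones. Fold changes come from a separate edgeR quasi-likelihood fit of each comparison over all genes, and a gene was called where its Benjamini-Hochberg adjusted p was below 0.05 and its fold change above 1.2.

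Per kilobase of annotated exon, the 10 genes spanned a wide range of levels in the diet libraries. Gnas, which encodes the stimulatory G protein alpha subunit, was the highest at a median of 57.1 CPM per kb over 22 libraries. Ndn, which encodes necdin, a growth suppressor of the MAGE family, followed at 24.3, and Grb10, an adaptor that dampens insulin and growth factor signalling, at 18.0 CPM per kb. Dlk1, a transmembrane ligand related to Delta, had a median of 3.17 CPM per kb and Meg3, a long non-coding RNA of the same chromosome 12 locus, 2.88, and the ranges of these 2 genes overlapped. Mest, a member of the alpha/beta hydrolase family, lay at 1.61 CPM per kb and Zrsr1, an intronless paralog of the splicing factor gene Zrsr2, at 1.58. H19, the long non-coding RNA next to Igf2, lay at 0.368 CPM per kb. The zinc finger genes Peg3 and Plagl1 were at 0.317 and 0.186 CPM per kb. Mest and Zrsr1 overlapped each other in range, and so did H19, Peg3 and Plagl1. These last 3 genes had at most 219 reads in any diet library, so their values carry more counting error than the others.

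In GENCODE M21 on GRCm38 (the same assembly as mm10), H19 lies on chromosome 7 at chr7:142575529-142578143, Peg3 at chr7:6703892-6730431 and Ndn at chr7:62346569-62350262. Dlk1 (chr12:109452823-109463336) and Meg3 (chr12:109541001-109571726) are neighbours on chromosome 12. Grb10 lies at chr11:11930508-12038683, Zrsr1 at chr11:22972005-22976496, Gnas at chr2:174284320-174346744, Mest at chr6:30723547-30748465 and Plagl1 at chr10:13060504-13131694. Zrsr1 lies within Commd1, which is on the opposite strand, and 412 bp of its exons overlap annotated exons of Commd1. Gnas shares 1469 bp of exon with Gm20721 and 988 bp with Nespas, Meg3 1228 bp with Gm26906 and Mest 912 bp with Copg2, all on the opposite strand. The use of strand in the counting is not stated, so reads of these overlapping pairs cannot be told apart. Gm20721 reached a mean of 616 CPM in the diet libraries, close to the level of Gnas.

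**Figure D1:**
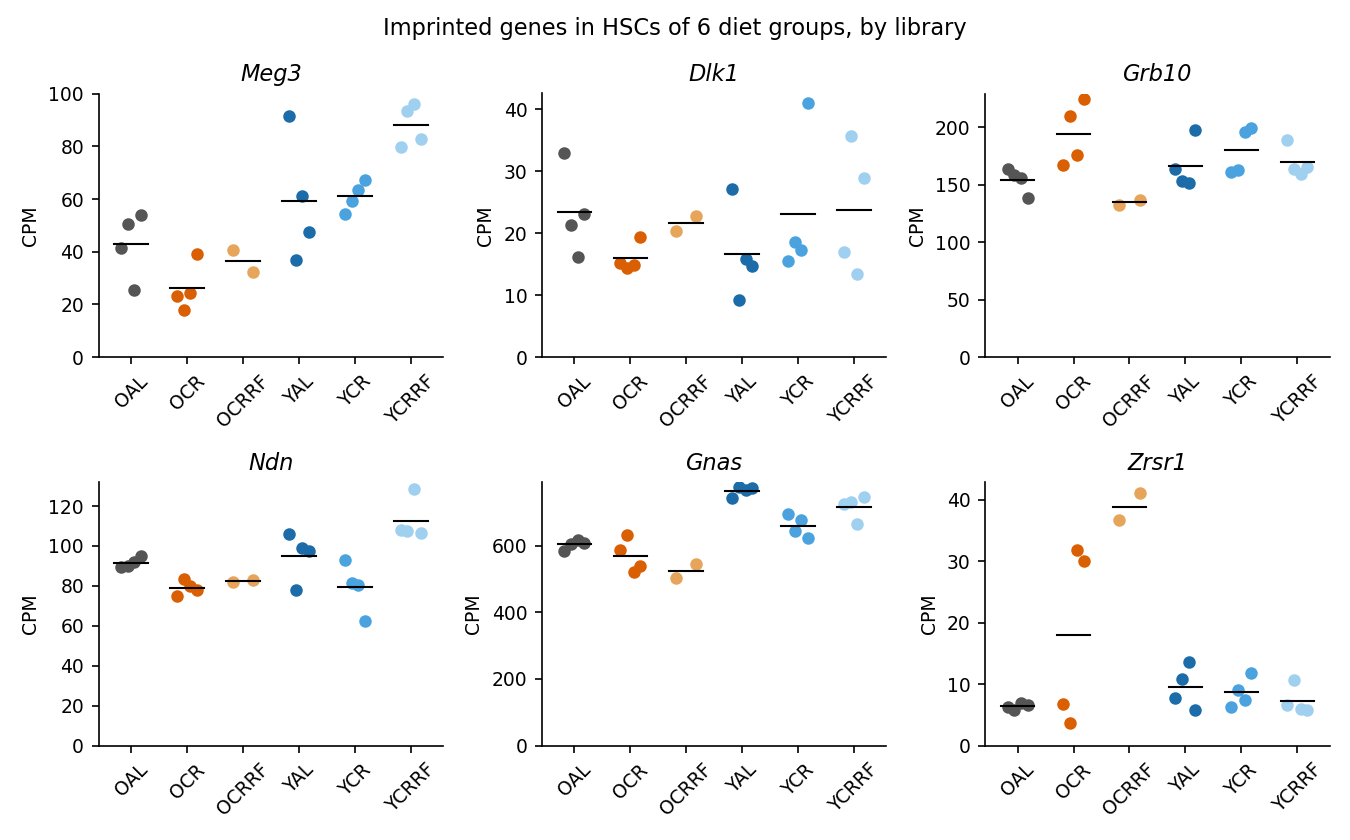
Level in CPM (vertical axes, from 0) of Meg3, Dlk1, Grb10, Ndn, Gnas and Zrsr1 in each diet library, with groups on the horizontal axes, points for libraries and lines for group means. Zrsr1 lies at 3.71 and 6.68 CPM in OCR replicates 2 and 1 but at 30.0 and 31.9 CPM in replicates 4 and 3, and Gnas is higher in all 4 YAL libraries than in all 4 OAL libraries.

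The comparison of OCR with OAL HSCs asks which genes differ after lifelong restriction. Of the 10 imprinted genes 4 were called: Grb10 and Zrsr1 were higher, and Meg3 and Dlk1 were lower, in OCR. Over all genes tested 5.57% were called (2.54% higher and 3.03% lower), and the median log2 fold change was 0.12 over the 10 genes and 0.02 over all genes. The calls rest on few libraries. Leaving out 1 library at a time left between 0 and 4 of the 10 called, with none called without OAL replicate 4, 1 each without OAL replicate 2, OCR replicate 2 and OCR replicate 3, and 2 each without OCR replicate 1 and OCR replicate 4. DESeq2 called 2 of them, Dlk1 and Grb10.

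Grb10 was measured at 164, 158, 156 and 139 CPM in the OAL libraries and at 167, 209.9, 176 and 225 CPM in the OCR libraries. All 4 OCR libraries lay above all 4 OAL libraries. The log2 fold change was 0.35 (SE 0.09, adjusted p = 0.0188 in edgeR's quasi-likelihood test), and it ranged from 0.27 to 0.42 with adjusted p from 0.00444 to 0.104 over 13 alternative settings. Grb10 was not called without OAL replicate 4, OCR replicate 2 or OCR replicate 4. After refeeding, Grb10 stood at 132 and 137 CPM in the 2 OCRRF libraries, below every OCR library and every OAL library. Against OCR the log2 fold change was -0.59 (SE 0.13, edgeR adjusted p = 0.00395), and Grb10 was the 1 imprinted gene of the 10 called in this comparison, in which 3.41% of all tested genes were called (0.694% higher and 2.71% lower). With OCRRF replicate 1 or 2 left out the adjusted p was 0.138 or 0.0836, with the remaining OCRRF library assumed to vary like the OCR libraries. In young HSCs Grb10 levels ranged from 152 to 199 CPM, and Grb10 was not called in any comparison of young groups.

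Meg3 was present at 41.2, 50.4, 25.4 and 53.9 CPM in OAL and at 23.0, 17.8, 24.5 and 39.0 CPM in OCR. The groups overlapped, with OAL replicate 3 near the lower OCR libraries and OCR replicate 4 near the OAL mean of 42.7 ± 12.7 CPM (SD, n = 4). The log2 fold change was -0.70 (SE 0.18, edgeR adjusted p = 0.0196), and it was called when OAL replicate 1, OAL replicate 3 or OCR replicate 4 was left out but not without any other single library, with an adjusted p of up to 0.169. With DESeq2 its adjusted p was 0.167. The OCRRF libraries held 40.7 and 32.1 CPM, and the log2 fold change against OCR was 0.43 (SE 0.18, edgeR adjusted p = 0.215). Without OCR replicate 4 this value was 0.66 (edgeR adjusted p = 0.00681).

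Dlk1, the neighbour of Meg3 and expressed from the other parental copy, had 32.9, 21.3, 16.1 and 23.1 CPM in OAL and 15.2, 14.3, 14.9 and 19.4 CPM in OCR. Only OAL replicate 3 lay within the range of the OCR libraries. The log2 fold change was -0.53 (SE 0.16, edgeR adjusted p = 0.0392). Without OAL replicate 1, the highest library, it was -0.32 (edgeR adjusted p = 0.302), and Dlk1 was called without OAL replicate 3 or OCR replicate 4 but not without any other single library. In the OCRRF libraries Dlk1 was at 20.3 and 22.8 CPM, both above every OCR library, and the log2 fold change against OCR was 0.38 (SE 0.16; adjusted p = 0.214, edgeR).

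Zrsr1 differed widely between the libraries of OCR. In OAL it was at 6.26, 5.83, 6.86 and 6.57 CPM. In OCR replicates 1 and 2 it was at 6.68 and 3.71 CPM, and in replicates 3 and 4 at 31.9 and 30.0 CPM. The OCRRF libraries were higher still, at 36.6 and 41.0 CPM, while the 12 young libraries ranged from 5.71 to 13.5 CPM. Zrsr1 had between 129 and 1000 reads in each OCR library and 1073 or 1187 in each OCRRF library, so its levels do not rest on a few counts. The edgeR log2 fold change of OCR against OAL was 1.51 (SE 0.37, adjusted p = 0.0107), but the adjusted p was 0.155 with DESeq2, 0.147 without OCR replicate 3 and 0.0548 without OCR replicate 4, with log2 fold changes of 1.48, 1.09 and 1.14. Without OAL replicate 2 or OAL replicate 4 the log2 fold change was 1.5 or 1.55 (edgeR adjusted p = 0.0525 and 0.0566). OCRRF and OCR libraries did not overlap, and the log2 fold change was 1.06 (SE 0.36, edgeR adjusted p = 0.102). Zrsr1 was called there in 6 of 11 alternatives. Among them were DESeq2 size factors (edgeR adjusted p = 0.0169), no filter (4.19e-11) and the replicate block (log2 fold change 2.87). The others left out OCR replicate 3 (edgeR adjusted p = 0.0467), OCR replicate 4 (0.0428) or OCRRF replicate 1 (log2 fold change 1.10). OCR replicates 3 and 4 have no OCRRF library of the same number. The fold change under the block therefore rests on OCR replicates 1 and 2, the low pair, and is no separate evidence.

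Neither the related gene Zrsr2 nor the overlapping gene Commd1 divided the OCR libraries in the way of Zrsr1. Zrsr2 was at 32.0, 34.8, 27.7 and 31.8 CPM in OCR replicates 1 to 4 and at 31.9 to 38.7 CPM in OAL. Commd1 was at 29.7, 29.3, 28.7 and 31.4 CPM in the same OCR libraries and at 22.1 to 27.2 CPM in OAL, and it was itself called higher in OCR (log2 fold change 0.34, SE 0.10, edgeR adjusted p = 0.0452).

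The other 6 genes were not called in OCR against OAL. Ndn came nearest, with 89.5, 89.8, 92.2 and 94.9 CPM in OAL and 74.8, 83.4, 79.9 and 78.0 CPM in OCR. These groups did not overlap, but the log2 fold change of -0.20 (SE 0.08) had an edgeR adjusted p of 0.180. Ndn stayed at 81.8 and 83.0 CPM in OCRRF, inside the OCR range, with a log2 fold change of 0.0029 (SE 0.12) against OCR. Gnas was at 585, 606, 619 and 609 CPM in OAL and at 587, 633, 520.2 and 539 CPM in OCR, so that 2 OCR libraries lay below all OAL libraries, and its log2 fold change was -0.07 (SE 0.08). Mest was near 6 CPM in all 3 old groups, with group means of 5.84 ± 1.03 (SD, n = 4) in OAL, 6.03 ± 0.83 (n = 4) in OCR and 6.84 ± 0.06 (n = 2) in OCRRF. Peg3 ranged from 3.54 to 7.07 CPM, Plagl1 from 0.823 to 2.62 CPM and H19 from 0.229 to 0.988 CPM over the old libraries, with overlap between OAL and OCR in each.

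The summed level of cycling markers (Mki67, Top2a, Ccnb1, Cdk1, Pcna, Mcm5) was 549 to 771 CPM in OCR libraries against 266 to 286 CPM in OAL and 233 to 260.0 CPM in OCRRF, and the part of cell cycle state in the values of Grb10, Meg3 and Dlk1 was not tested. In bulk libraries, fewer cells with a gene and less RNA per cell cannot be told apart. The summed erythroid markers were 61.6 to 252 CPM in OAL and 56.3 to 95.9 CPM in OCR, and those of the B lineage and plasma cells 6.65 to 234 CPM in OAL and 8.19 to 10.1 CPM in OCR. Mesenchymal stroma genes summed to 36.7 to 39.6 CPM in OAL and 34.7 to 50.6 CPM in OCR, ranges that overlap.

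In young HSCs none of the 10 genes was called, neither for YCR against YAL (0.257% of all genes called, 0.0642% higher and 0.193% lower) nor for YCRRF against YCR (0.0102%, all of them higher). At an unadjusted p below 0.05 the edgeR fits held 2 of 10 in each, against 1735 of 18680 and 1420 of 19535 over all tested genes. DESeq2 called 0 in the former and 1, Meg3, in the latter. For YCR against YAL the 2 were Gnas and Peg3. Gnas was at 744, 778, 767 and 773 CPM in YAL and at 695, 645, 678 and 624 CPM in YCR. The groups did not overlap, and the log2 fold change was -0.19 (SE 0.05, edgeR adjusted p = 0.211).

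Peg3 was scattered between the young libraries. It was at 0.709, 0.378, 1.49 and 1.81 CPM in YAL, at 7.40, 0.710, 6.85 and 1.01 CPM in YCR, and at 5.06, 2.56, 6.99 and 0.183 CPM in YCRRF. Of the YCR libraries 2 lay within the range of YAL and 2 well above it, and the log2 fold change of 1.87 carried an SE of 0.83 (edgeR adjusted p = 0.517).

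For YCRRF against YCR the 2 genes at an unadjusted p below 0.05 were Meg3 and Ndn. Meg3 was at 54.4, 59.4, 63.3 and 67.2 CPM in YCR and at 79.6, 93.5, 96.2 and 82.9 CPM in YCRRF, and in YAL it ranged from 36.9 to 91.5 CPM. YCR and YCRRF did not overlap, and the log2 fold change was 0.51 (SE 0.14, edgeR adjusted p = 0.339). Ndn was at 92.8, 81.3, 80.7 and 62.2 CPM in YCR and at 108, 107, 129 and 107 CPM in YCRRF, again without overlap (log2 fold change 0.49, SE 0.15, edgeR adjusted p = 0.406). The adjusted p of Meg3 was 0.0406 with DESeq2.

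The young groups also differed in markers of other cells. Summed B lineage and plasma cell markers were 51.9 to 1367 CPM in YCR against 50.8 to 138 CPM in YAL and 1.62 to 38.7 CPM in YCRRF. Summed granulocyte and monocyte markers were 668 to 1841 CPM in YCRRF against 394 to 722 CPM in YCR and 442 to 1032 CPM in YAL. Their part in the values of the young groups was not tested.

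**Figure D2:**
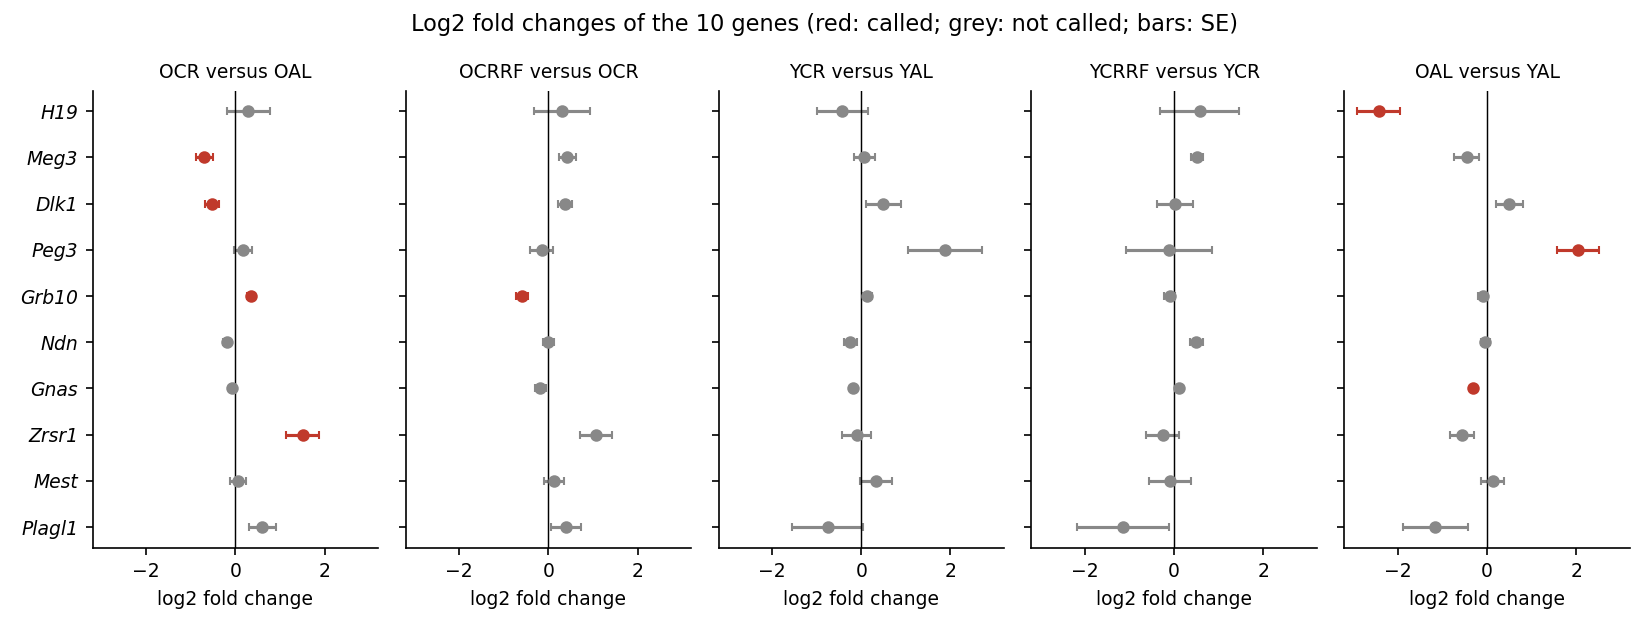
Log2 fold change (horizontal axes, first group minus second, bars are SE) of the 10 imprinted genes (vertical axis) in 5 comparisons of diet groups, with genes called by edgeR in red and others in grey. There are 4 red points for OCR versus OAL, 1 for OCRRF versus OCR, none for the comparisons of young groups and 3 for OAL versus YAL.

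Whether the response to restriction differed between the old and the young groups was tested as the OCR minus OAL difference less the YCR minus YAL difference, in 1 fit. Restriction was lifelong in the old mice and lasted 4 weeks in the young, so age and length of restriction cannot be told apart here. None of the 10 genes was called (edgeR), 2 of 10 had an unadjusted p below 0.05, and DESeq2 called 0. Over all genes 0.0424% were called (0.0177% with a positive and 0.0247% with a negative difference), and 2531 of 28328 had an unadjusted edgeR p below 0.05. The 2 genes were Zrsr1, with a log2 difference of 1.66 (SE 0.68, edgeR adjusted p = 0.484), and Dlk1, with -1.01 (SE 0.44, edgeR adjusted p = 0.505). The response of Grb10, Zrsr1, Meg3 and Dlk1 was therefore not shown to differ between lifelong restriction in old and short-term restriction in young HSCs.

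Between old and young HSCs of mice fed ad libitum (OAL against YAL), 3 of the 10 genes were called: Gnas and H19 were lower and Peg3 was higher in OAL. Here 14.8% of all tested genes were called (6.89% higher and 7.93% lower). The OAL and YAL libraries are also the controls of the comparisons with OCR and YCR. Per the study's methods, the old mice came from the NIA Aged Rodent Colony and the young mice from The Jackson Laboratory. Age and animal source therefore cannot be told apart in this comparison. Gnas was at 585 to 619 CPM in OAL and at 744 to 778 CPM in YAL, without overlap (log2 fold change -0.33, SE 0.05, edgeR adjusted p = 0.00285). The scaling matters for a difference of this size. With TMM factors taken from genes whose mean was 5 CPM or more, the median of all genes moved by 0.11 and Gnas to -0.22, which was no longer called. Under the same scaling 1870 genes were called higher and 784 lower, against 1620 and 1866 with all filtered genes.

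H19 was at 0.345, 0.317, 0.513 and 0.426 CPM in OAL, from 10 to 16 reads a library, and at 1.18, 2.77, 2.50 and 2.31 CPM in YAL, from 20 to 88 reads. The groups did not overlap, and the log2 fold change was -2.43 (SE 0.48; adjusted p = 0.00898, edgeR). OCR and OCRRF libraries also stayed below 1 CPM, and the other young libraries ranged from 0.187 to 5.72 CPM. Peg3 was at 3.73, 5.45, 4.14 and 4.62 CPM in OAL, above all YAL libraries (0.378 to 1.81 CPM), and the log2 fold change was 2.04 (SE 0.48; adjusted p = 0.0172, edgeR). It was not called without OAL replicate 2 or OAL replicate 4, with an edgeR adjusted p of up to 0.0626 and log2 fold changes of 1.94 and 2.03. Old and young libraries differed in the number of genes with reads (42071 to 43972 in OAL and 25936 to 28713 in YAL), and the part of this difference in the values of low genes such as H19 and Peg3 was not tested. Marker sums that did not overlap between OAL and YAL were those of mesenchymal stroma (36.7 to 39.6 against 17.7 to 29.4 CPM), megakaryocytes (757 to 999 against 515 to 643 CPM), the T lineage (3.85 to 4.38 against 1.43 to 1.95 CPM) and cycling cells (266 to 286 against 406 to 494 CPM). Their part in the values of Gnas, H19, Peg3 and the other genes called with age was not tested either.

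The remaining 7 genes were not called with age. Grb10 (log2 fold change -0.10, SE 0.09) and Ndn (-0.04, SE 0.10) were near 0, and both turned to small positive values, 0.01 and 0.07, with TMM factors from the genes of at least 5 CPM. Meg3 had a log2 fold change of -0.46 (SE 0.28), Dlk1 of 0.50 (SE 0.31), Zrsr1 of -0.56 (SE 0.27), Mest of 0.12 (SE 0.25) and Plagl1 of -1.16 (SE 0.73). Plagl1 is an example of the spread in young libraries, with 0.946, 0.347, 6.18 and 3.40 CPM in YAL.

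The list of 50 other imprinted genes holds neighbours of some of the 10, such as Igf2 and Rian, and also imprinted genes of other loci. In OCR against OAL 46 of the 50 were tested and 3 called by edgeR, against 5.57% of all tested genes. In OCRRF against OCR 3 of 48 were called (3.41% of all genes) and in OAL against YAL 7 of 44 (14.8%). For YCR against YAL 0 of 37 were called (0.257%) and for YCRRF against YCR 0 of 40 (0.0102%). In these comparisons of young groups 5 and 2 had an unadjusted edgeR p below 0.05, against 1735 of 18680 and 1420 of 19535 over all tested genes. Slc22a3, an organic cation transporter gene of the Igf2r cluster, was higher in OCR than in OAL, at 74.8, 72.0, 44.6 and 58.9 CPM against 41.2, 28.6, 36.4 and 28.7 CPM (log2 fold change 0.91, SE 0.13, edgeR adjusted p = 2.64e-05). In the OCRRF libraries it was lower, at 24.9 and 33.5 CPM (log2 fold change -1.17, SE 0.17, edgeR adjusted p = 8.1e-06). Its levels in YCR were 121, 110.5, 71.7 and 98.4 CPM against 28.9 to 78.0 CPM in YAL, with the same log2 fold change of 0.91 but an SE of 0.26 (edgeR adjusted p = 0.241). Asb4, a component of ubiquitin ligases in the Peg10 cluster, had the opposite pattern, at 5.39 to 6.67 CPM in OCR, 8.39 to 14.8 CPM in OAL and 13.6 and 14.7 CPM in OCRRF. Its log2 fold changes were -1.01 (SE 0.16, edgeR adjusted p = 0.000101) for OCR against OAL and 1.15 (SE 0.19, edgeR adjusted p = 7.17e-05) for OCRRF against OCR. Phlda2, a pleckstrin homology protein gene, was called lower in OCRRF than in OCR (log2 fold change -0.78, SE 0.21, edgeR adjusted p = 0.0287).

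With age the called genes of this list included Cdkn1c, which encodes the cell cycle inhibitor p57. Cdkn1c was at 58.4, 72.8, 65.8 and 71.0 CPM in OAL and at 109.6, 107, 103 and 104 CPM in YAL (log2 fold change -0.65, SE 0.08, edgeR adjusted p = 0.00118). It ranged from 52.2 to 69.7 CPM in OCR and from 68.6 to 98.7 CPM in YCR. Phlda2 (log2 fold change -1.14), Sgce (-0.47), H13 (-0.36) and Trappc9 (-0.49) were also lower in OAL than in YAL, and Herc3 (0.88) was higher. These are the 6 of highest level among the 7 called. Igf2, the growth factor gene next to H19, stayed at or below 1.12 CPM in all diet libraries. Igf2r, whose product clears IGF2, ranged from 29.0 to 84.0 CPM. Rian and Mirg, the non-coding genes downstream of Meg3, ranged from 5.29 to 12.3 CPM and from 0 to 3.91 CPM, and neither was called in any diet comparison.

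Genes whose levels moved most like each imprinted gene were sought among 12326 other genes whose mean was 5 CPM or more, by Pearson's r of log2 CPM over the 22 diet libraries after the group means were subtracted. The values share library and depth and are a description. The closest to Gnas were Gm20721 (r = 0.934), which overlaps it, and Laptm5 (0.806). For Ndn they were Abcc5 (0.92) and Prox2 (0.868), for Meg3 the overlapping Gm26906 (0.782) and Arhgef10l (0.74), and for Dlk1 Osmr (0.819) and Zfp445 (0.788). Grb10 was nearest to Dnmt3a (0.816) and Exoc4 (0.801). For Zrsr1 the highest values were lower, at 0.652 for Efna1 and 0.569 for Pdgfc.

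**Figure D3:**
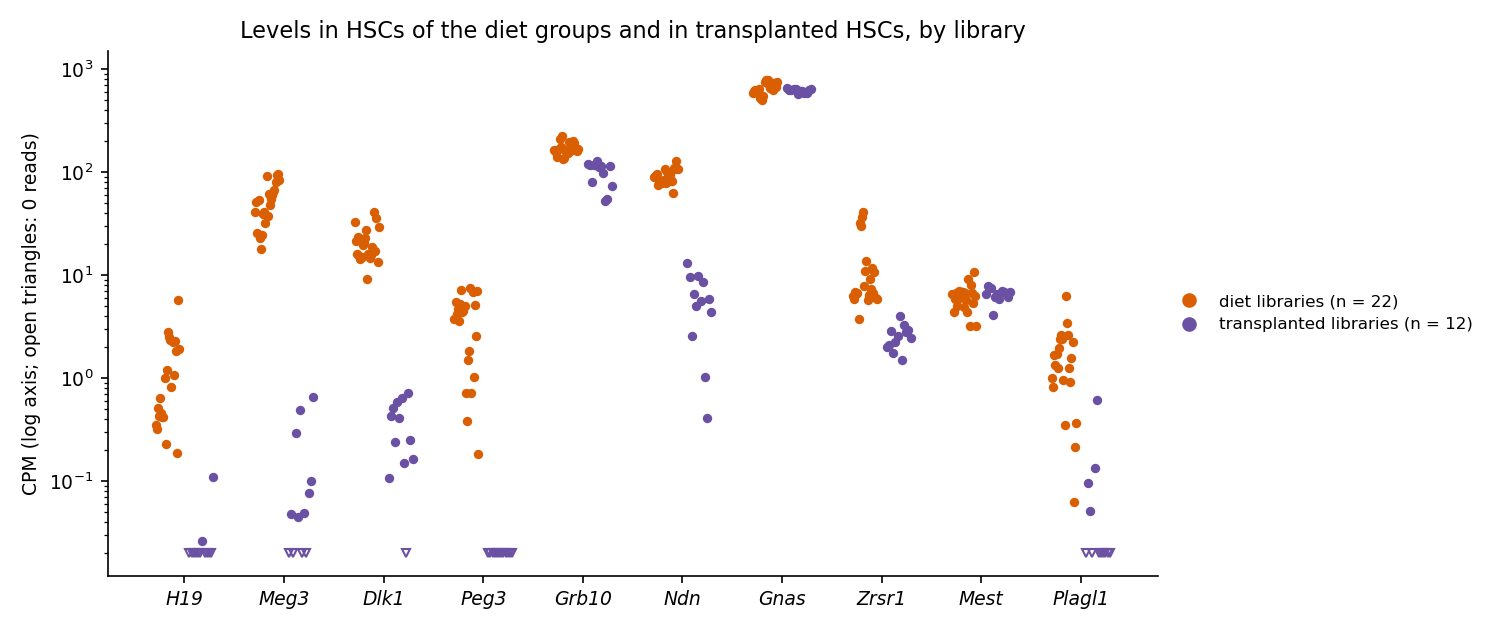
Level in CPM (vertical axis, log scale) of the 10 imprinted genes (horizontal axis) in each of 22 diet libraries (orange) and 12 transplanted libraries (purple), with open triangles at the foot for libraries with 0 reads. Peg3 had 0 reads in all 12 transplanted libraries, while Gnas lay between 504 and 778 CPM in the diet libraries and between 572 and 646 CPM in the transplanted ones.

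In transplanted HSCs H19, Meg3, Dlk1, Peg3 and Plagl1 were at or near 0, while Gnas and Mest were at levels like those of the diet libraries. Peg3 had no read in any of the 12 libraries, which allows a level of up to 0.067 to 0.0841 CPM at 3 counts per library, for counting error only. H19 had reads in 2 libraries, with 4 at most. Meg3 reached 0.649 CPM and Dlk1 0.707 CPM at the highest, against lowest values of 17.8 and 9.20 CPM in the diet libraries. Rian did not exceed 0.514 CPM, and Mirg had 0 reads in all 12. Ndn was measurable but lower than in any diet library, at 0.404 to 12.9 CPM against 62.2 to 129 CPM. Grb10 at 52.0 to 128 CPM lay below all diet libraries and Zrsr1 at 1.5 to 3.97 CPM overlapped 1 of them, at 3.71 CPM. Gnas and Mest, at 572 to 646 CPM and 4.12 to 7.81 CPM, lay within the range of the diet libraries. The transplanted and diet libraries differ in host, sorting gate, vector, RNA extraction, kit and sequencer, so these sources cannot be told apart and no test was made.

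The targeted genes were lower in the knockdown libraries, but neither was called. Kdr was at 6.04 and 6.07 CPM in GFP_Scramble and at 1.93, 2.21, 3.28 and 2.03 CPM in Kdr_shRNA (log2 fold change -1.35, SE 0.25, edgeR adjusted p = 0.247). In the double knockdown Kdr was at 0.555 to 1.60 CPM against 3.97 and 4.62 CPM (log2 fold change -1.86, SE 0.37), and Bmpr1a at 4.44 and 0.656 CPM with shRNA1 and 2.22 and 0.595 CPM with shRNA2 against 5.21 and 4.43 CPM (log2 fold change -1.29, SE 0.72). Over all genes 0.0149% and 0.00498% were called in the Kdr and the double knockdown. Of the imprinted genes 7 and 6 of 10 passed the filter on low counts, and none was called by edgeR or DESeq2 or had an unadjusted p below 0.05.

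The largest fold change was that of Meg3 in the Kdr knockdown, at 0 and 0.0478 CPM in GFP_Scramble and 0, 0.289, 0.0446 and 0.483 CPM in Kdr_shRNA (log2 fold change 2.89, SE 1.80, edgeR adjusted p = 0.666), which rests on at most 19 reads a library. Ndn, with more reads, was at 12.9 and 9.60 CPM in GFP_Scramble and at 2.54, 6.55, 4.99 and 9.68 CPM in Kdr_shRNA, with 1 knockdown library between the control libraries (log2 fold change -0.92, SE 0.41, edgeR adjusted p = 0.564). In the double knockdown it was at 1.01 and 0.404 CPM with shRNA1 and at 5.89 and 4.38 CPM with shRNA2, against 5.53 and 8.51 CPM in Double_Scramble (log2 fold change -1.26, SE 0.84). For Grb10, too, both libraries with shRNA1 were the lowest, at 52.0 and 55 CPM with shRNA1 and at 114 and 73.5 CPM with shRNA2 against 114 and 96.7 CPM in Double_Scramble (log2 fold change -0.52, SE 0.29, edgeR adjusted p = 0.602). Summed granulocyte and monocyte markers were 765 to 1150 CPM with shRNA1, 1321 to 2921 CPM with shRNA2 and 2021 to 4145 CPM in Double_Scramble, and mesenchymal stroma genes 11.2 to 15.6, 11.4 to 24.9 and 29.0 to 32.8 CPM. Their part in the values of Ndn and Grb10 was not tested. Gnas had a log2 fold change of -0.05 (SE 0.07) in the Kdr knockdown and -0.0039 (SE 0.05) in the double knockdown. Of the other imprinted genes 0 of 29 and 0 of 33 tested were called by edgeR, and 4 and 6 had an unadjusted p below 0.05. Over all tested genes 1789 of 20098 and 1977 of 20072 had an unadjusted edgeR p below 0.05. Slc22a3 was at 268 and 329 CPM with shRNA1 and 176 and 303 CPM with shRNA2 against 134 and 140.1 CPM in Double_Scramble, without overlap (log2 fold change 0.97, SE 0.22, edgeR adjusted p = 0.287).

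Chromatin at the starts of these genes was read from H3K4me3, a mark of active promoters, and H3K27me3, the mark of Polycomb repression, with 2 OCR libraries for each. The deposited values are a mean signal per base, in a window of 750 bp for H3K4me3 and 2000 bp for H3K27me3 that begins at each annotated start. No other group of these marks was analysed here, so the values describe OCR HSCs alone. The 10 genes have 19 distinct starts. Of these 4 lay above the median of all 31552 transcripts for both marks, 4 for H3K4me3 only and 11 for H3K27me3 only, against 12.6%, 37.4% and 37.4% of all transcripts. Starts of the same gene are not independent.

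Zrsr1 had the highest H3K4me3 of the 19 starts, at 30.5 and 28.0 in the 2 libraries (76.3th percentile of all transcripts), with H3K27me3 at 0.257 and 0.0778 (25.6th percentile). A start of Commd1 on the opposite strand lies 861 bp away, so the windows of the genes overlap. Ndn had 15.3 and 11.0 for H3K4me3 and Peg3 14.6 and 12.8, both with H3K27me3 near 1. Plagl1 held both marks, at 12.9 and 11.3 for H3K4me3 and 2.15 and 2.34 for H3K27me3, although its RNA did not exceed 2.37 CPM in OCR. H19 had little H3K4me3, at 0.822 and 0.837, and H3K27me3 at 1.72 and 1.63. Dlk1 was at the 93.1th percentile of H3K27me3 (3.90 and 4.09) and the 43.2th of H3K4me3 (3.55 and 5.29) at its upstream start. The main start of Meg3 had 6.99 and 6.02 for H3K4me3 and 1.77 and 1.42 for H3K27me3.

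**Figure D4:**
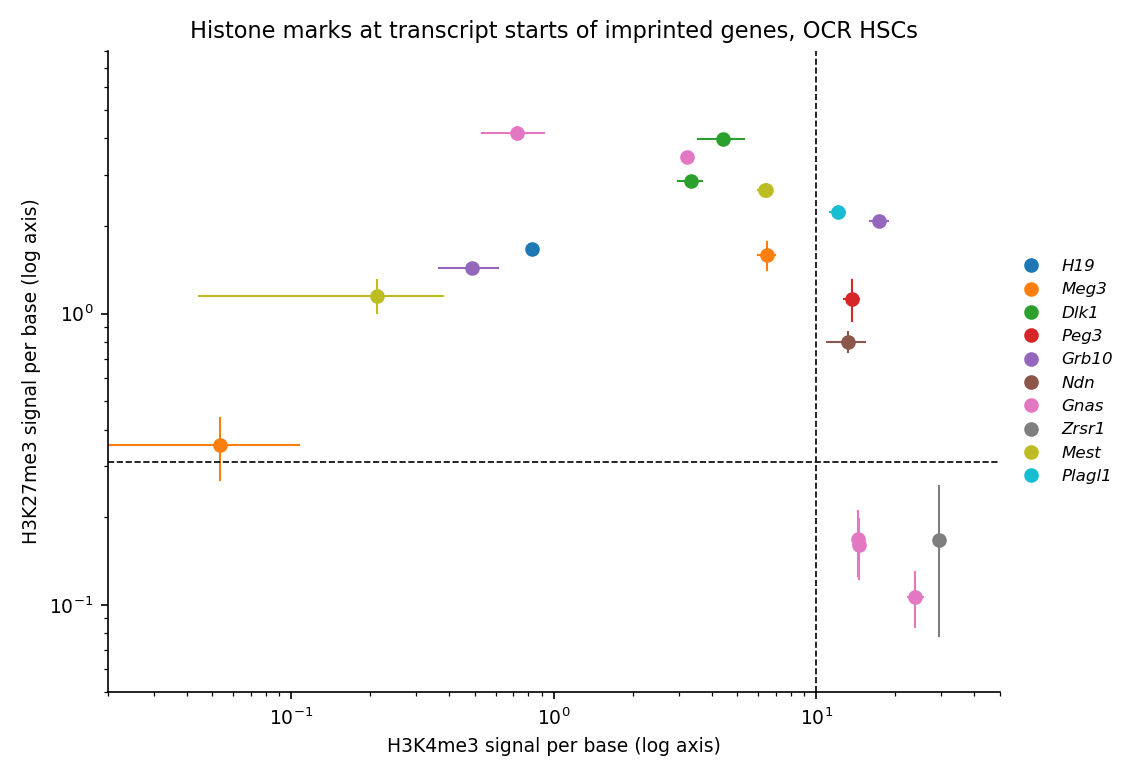
H3K4me3 signal (horizontal axis) against H3K27me3 signal (vertical axis), both per base on log axes, at 19 starts of the 10 genes in OCR HSCs, with points for means, bars between the 2 libraries of each mark and dashed lines for the medians of all transcripts. The H3K4me3 bar of the second Meg3 start reaches the left edge because 1 library was at 0 there. The 5 Gnas starts lie in opposite corners, with H3K27me3 at 4.16 and H3K4me3 at 0.726 at one and H3K27me3 at 0.107 and H3K4me3 at 23.9 at another.

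Starts within a gene differed at Gnas, a locus known for several promoters under separate imprinting. Its most upstream start, that of the neuroendocrine secretory protein NESP55, had H3K27me3 at 3.39 and 3.51 and H3K4me3 at 3.09 and 3.34. The next, that of the extra-large form, had H3K27me3 at 4.39 and 3.94 and H3K4me3 at 0.919 and 0.532. The pair of starts near exon 1A had H3K4me3 of 14.4 to 14.5 with H3K27me3 at or below 0.21, and the downstream start of the G protein subunit itself had H3K4me3 at 25.4 and 22.3 and H3K27me3 at 0.0842 and 0.129. Grb10 had H3K4me3 of 18.8 and 16.1 together with H3K27me3 of 2.13 and 2.03 at its upstream start, and H3K4me3 of 0.364 and 0.612 with H3K27me3 of 1.37 and 1.5 at the downstream one. Mest had H3K4me3 of 6.04 and 6.78 at its main start and of 0.0447 and 0.379 at the start farther upstream.

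The sequences of these contrasting starts are shown because CG content, which sets CpG island promoters apart, also differs between them. Each line gives 150 bases upstream and 30 bases downstream of a start, 5′ to 3′ on the gene's strand, from the RefSeq promoter table for GRCm38.p6, with every CG dinucleotide in capitals. In order they are the upstream and downstream starts of Grb10 (chr11:12037391-12037570 and chr11:12027942-12028121, minus strand), the NESP55 and G protein starts of Gnas (chr2:174284170-174284349 and chr2:174329856-174330035, plus strand), the upstream and main starts of Mest (chr6:30733356-30733535 and chr6:30737900-30738079, plus strand) and the start of Zrsr1 (chr11:22971855-22972034, plus strand).
Grb10 upstream start: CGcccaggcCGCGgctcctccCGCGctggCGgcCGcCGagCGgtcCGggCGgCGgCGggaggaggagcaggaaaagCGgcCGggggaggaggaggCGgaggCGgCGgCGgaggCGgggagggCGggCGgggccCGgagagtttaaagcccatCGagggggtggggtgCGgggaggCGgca
Grb10 downstream start: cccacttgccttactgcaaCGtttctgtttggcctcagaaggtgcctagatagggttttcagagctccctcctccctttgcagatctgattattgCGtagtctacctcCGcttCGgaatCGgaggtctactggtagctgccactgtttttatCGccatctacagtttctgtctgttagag
Gnas NESP55 start: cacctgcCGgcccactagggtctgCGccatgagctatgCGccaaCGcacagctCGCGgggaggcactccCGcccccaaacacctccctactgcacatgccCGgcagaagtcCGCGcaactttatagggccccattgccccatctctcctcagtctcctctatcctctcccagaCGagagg
Gnas G protein start: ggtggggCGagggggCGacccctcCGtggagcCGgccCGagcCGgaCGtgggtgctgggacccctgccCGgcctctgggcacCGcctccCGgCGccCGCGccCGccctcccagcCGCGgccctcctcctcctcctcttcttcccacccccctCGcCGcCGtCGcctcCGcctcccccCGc
Mest upstream start: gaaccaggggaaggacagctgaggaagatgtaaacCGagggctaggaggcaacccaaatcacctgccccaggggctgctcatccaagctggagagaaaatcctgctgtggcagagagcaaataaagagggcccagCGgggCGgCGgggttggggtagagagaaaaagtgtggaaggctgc
Mest main start: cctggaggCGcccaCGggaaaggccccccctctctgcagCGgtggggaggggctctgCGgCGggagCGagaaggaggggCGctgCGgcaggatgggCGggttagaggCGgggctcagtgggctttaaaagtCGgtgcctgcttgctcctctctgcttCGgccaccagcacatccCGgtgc
Zrsr1 start: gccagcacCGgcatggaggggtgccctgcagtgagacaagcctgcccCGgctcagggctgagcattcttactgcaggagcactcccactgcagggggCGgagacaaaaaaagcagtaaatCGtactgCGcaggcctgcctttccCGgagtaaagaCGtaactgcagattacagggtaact

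The upstream start of Grb10 holds 26 CG dinucleotides in 180 bases, against 6 at its downstream start. The G protein start of Gnas holds 22 and the NESP55 start 11, and the main start of Mest 13 against 4 at its upstream start. Within Grb10, Gnas and Mest, the printed start with more CG was the one with more H3K4me3. Zrsr1, with the highest H3K4me3 of the 10 genes, holds only 7. The median over 32851 promoter windows was 5, and 14 of 16 windows found for 9 of the 10 genes lay above it. The motif TGCCGC, bound by the imprint-protecting zinc finger protein ZFP57 when methylated, was sought on both strands of the 300-base windows. It was found in 5 of the 16 windows, those of Grb10 (upstream), Meg3 (main start), Plagl1 and Mest (2 windows that overlap), and in 11.6% of all windows. A match is a description of the letters and not a binding site.

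Open chromatin near the starts was compared between OCRRF (n = 2) and OCR (n = 4) HSCs in the ATAC-seq counts. A peak lay within 2 kb of a start for all 10 genes, with 19 peaks in all and 18 tested. None was called (adjusted p below 0.05, fold change above 1.5 and mean log2 CPM above 1.5), against 0.221% of all peaks (0.13% higher and 0.0908% lower), and DESeq2 called 0. Only 12 of the peaks had a mean log2 CPM above 1.5, so the others could not be called whatever their change. Among those others were all peaks of Meg3 (log2 fold changes 0.83, SE 0.53, and -0.96, SE 0.40) and of H19 (-0.71, SE 0.41). In edgeR 4 of the 18 had an unadjusted p below 0.05, against 14437 of 123372 over all tested peaks. The nearest to a call was the Zrsr1 peak (chr11:22971803-22973347), at 31.1, 32.5, 39.5 and 36.8 CPM in OCR replicates 1 to 4 and at 45.4 and 41.4 CPM in OCRRF. Both OCRRF libraries lay above the 4 OCR libraries, and the log2 fold change was 0.31 (SE 0.09, edgeR adjusted p = 0.0861). The peak also spans a start of Commd1 on the opposite strand, so its signal cannot be assigned to either gene alone. OCR replicates 1 and 2 were the lower pair at this peak and in the RNA of Zrsr1, but nothing in the labels ties an ATAC-seq library to the RNA library of the same number. The Ndn peak (chr7:62347959-62348963) was at 23.1 to 24.9 CPM in OCR and at 27.6 and 30.4 CPM in OCRRF (log2 fold change 0.29, SE 0.09, edgeR adjusted p = 0.169).

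The peaks of highest CPM, not scaled by peak width, were 1 near Peg3 (chr7:6727410-6729841) and that of the G protein start of Gnas (chr2:174329137-174331195). They had means of 78.3 ± 13.7 CPM (SD, n = 4 OCR libraries) and 77.5 ± 4.46 CPM, both at the 99.2th percentile of all peaks. They are wide, at 2431 and 2058 bp, and the Peg3 peak lies 578 bp from the start. The peak at the Peg3 start itself (chr7:6730230-6730548) is 318 bp wide and had 4.67 ± 0.896 CPM, at the 64.7th percentile. The upstream start of Grb10 had 49.9 ± 5.13 CPM (chr11:12035633-12038494) and its log2 fold change was 0.07 (SE 0.08), while the RNA of Grb10 was lower in OCRRF. The peak at the main start of Meg3, 314 bp wide and at 0.495 ± 0.168 CPM, was at the 7.39th percentile. That at H19, 364 bp wide and at 1.37 ± 0.259 CPM, was at the 31.4th. No PU.1 peak lay within 2 kb of a start or inside the body of any of the 10 genes in the 6 PU.1 ChIP-seq libraries of old HSCs. These libraries, labelled OWT, OCR and OCRRF (n = 2 each), held 2262 to 5464 peaks each. The share of all genes with such a peak was not counted, so the absence is not shown to be particular to these genes.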

How the data were processed

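RNA was sequenced from sorted HSCs. Per the study's methods, reads were trimmed with cutadapt, aligned with STAR to mm10 and counted per gene with featureCounts on GENCODE M22; the use of strand is not given in the sources used here. The deposited values are raw counts per gene (34 libraries) and per ATAC-seq peak, mean histone signal per base over promoter windows, and PU.1 peaks with the score, fold enrichment and −log10 q-value of the authors' peak caller. Histone reads were aligned with BWA. OAL libraries of ATAC-seq and histone marks were not analysed here.

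Groups followed the labels. Counts were tested with edgeR 4.0.16 (R 4.3.3; TMM factors, low counts filtered by group size, quasi-likelihood F test, Benjamini-Hochberg adjustment over all genes), 1 fit per comparison, and the interaction over 4 groups. The SE is the log2 fold change divided by the root of F. Alternatives were DESeq2 1.42.0, its size factors, TMM factors from genes of at least 5 CPM, no filter, a replicate block and leaving out each library. The tests were run first on simulated counts. Mean levels are ± SD. Intervals and limits cover counting error only. Positions came from GENCODE M21. The 10 genes were all reported. Of the other imprinted genes, those called (at most the 6 of highest mean CPM per comparison), those named by locus or as overlapping genes, and the closest 2 genes by correlation (mean of at least 5 CPM) were named; those of Mest are not reported here. The 10 genes and all lists were chosen with earlier results of these data known.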

Additional observations from a re-analysis of the deposited data

Results flagged for a closer look

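In groups of 4 libraries, 5 values stood apart from the other 3 by a gap above Dixon's 95% critical value, among 60 combinations of gene and group examined. Chance flags about 1 in 20 groups. Dlk1 was at 19.4 CPM in OCR replicate 4 against 14.3 to 15.2 CPM in the other OCR libraries, and at 40.9 CPM in YCR replicate 4 against 15.5 to 18.6 CPM. Without OCR replicate 4 the log2 fold change of Dlk1 for OCR against OAL was -0.65, and with it -0.53. The other 3 were in YCRRF, in different libraries: Ndn at 129 CPM in replicate 3 (106.7 to 107.8 CPM in the others), Zrsr1 at 10.7 CPM in replicate 2 (5.84 to 6.64 CPM) and Plagl1 at 2.24 CPM in replicate 1 (0.0624 to 0.365 CPM). Zrsr1 in OCR, where 2 libraries lay near 30 CPM and 2 below 7 CPM, was not found by this measure, which looks for 1 library apart.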

How the results depend on the processing

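Of 980 log2 fold changes of the 10 genes under alternative settings, 935 counted as unchanged, 28 lost a call and 10 gained one. The other 7 changed sign by at least 1 SE of the main fit. A smaller change of sign without a call counted as unchanged. Ndn for OCRRF against OCR, for example, kept its direction in only 5 of 11 alternatives. The 7 larger sign changes were as follows. Peg3 was at -0.029 for OCR against OAL without OCR replicate 3 (leave-one-out range up to 0.31). H19 was at -1.16 for OCRRF against OCR without OCRRF replicate 1 (up to 1.02). H19 was also at -0.31 for YCRRF against YCR without YCRRF replicate 3 (up to 0.96). Grb10 was at 0.012 and Ndn at 0.073 for OAL against YAL with TMM factors from genes of at least 5 CPM. Dlk1 was at 0.91 in the double knockdown without Double_Scramble replicate 1 (down to -1.15). Zrsr1 was at -0.47 there without Double_Scramble replicate 2 (up to 0.92). None of these 7 was called.

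For OCR against OAL, DESeq2 called 2 of the 10 genes and TMM factors from genes of at least 5 CPM 2. For OCRRF against OCR, DESeq2 size factors called 2, no filter 2 and the replicate block 3, and for YCRRF against YCR DESeq2 called 1. Leaving out 1 library gave 0 to 4 called for OCR against OAL, 0 to 3 for OCRRF against OCR and 2 to 4 for OAL against YAL, and 0 in each other comparison. Without OCR replicate 3 the OCRRF against OCR count was 2, without OCR replicate 4 it was 3 and without OCRRF replicate 2 it was 0. The cause was not tested.

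Over all genes, DESeq2 called 2349 (OCRRF against OCR), 511 (YCR against YAL), 355 (YCRRF against YCR), 7897 (OAL against YAL), 239 (interaction), 261 (Kdr knockdown) and 332 (double knockdown). With no filter the counts were 368, 275, 6671, 23, 82 and 19 in the last 6 of these. DESeq2 size factors and TMM factors from genes of at least 5 CPM each left 1 for YCRRF against YCR. Leaving out 1 library gave 1106 to 1655 genes for OCR against OAL, 352 to 2755 for OCRRF against OCR, 6 to 28 for YCR against YAL, 0 to 10 for YCRRF against YCR, 1475 to 5358 for OAL against YAL, 2 to 27 for the interaction, 0 to 12 for the Kdr and 0 to 1 for the double knockdown, and 98 to 367 ATAC-seq peaks. With TMM factors from genes of at least 5 CPM the median of all genes moved by 0.129 for OCRRF against OCR and 0.11 for OAL against YAL, and calls split into 894 higher and 697 lower for OCR against OAL (689 and 822 in the report) and 341 and 575 for OCRRF against OCR (226 and 884).

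Same-numbered libraries showed little common deviation from their group means (r from -0.293 to 0.185). In groups this small that does not show that they share only a number. The replicate block gave 3437 genes for OCRRF against OCR, 7 for YCR against YAL, 0 for YCRRF against YCR, 1651 for OAL against YAL, 2 for the interaction, 26 for the Kdr and 0 for the double knockdown, and 764 ATAC-seq peaks. It left 3 of the 10 genes called for OCR against OAL. For OCRRF against OCR (RNA and ATAC-seq) and for the Kdr knockdown, only replicates 1 and 2 occur in both arms. The block compares those libraries alone there, so its counts do not describe the full groups. Where a left-out library leaves 1 in an arm, that library is assumed to vary like the other arm.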
